A study of Arabidopsis thaliana with 4 samples.

Results

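DNA affinity purification sequencing (DAP-seq) of the Arabidopsis thaliana transcription factor MYB67 gave one list of bound regions, or peaks, and the peaks described here are those in which a motif scan found exactly 1 site. They were taken from the authors' deposited list of motif sites as the peaks with a single entry. They number 1399 of 5390 peaks (25.96%), and 1399 of the 5188 peaks with any site. The q-value of that single site, which is the false discovery rate the scan program FIMO gave to the sequence match, divided them into 629 peaks with a q up to 0.01, called better-matched sites below, and 770 peaks with a q above 0.01, called weaker-matched sites. Membership and the split rest on the sequence within each peak, and neither fold enrichment nor assigned gene was used to set them. The bounds of a peak came from the read signal, however, and the motif was derived from the same peaks. Site count and site q are therefore not fully independent of the signal.

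The study concerns MYB67 in the outer protective tissue of the maturing root, and its DAP-seq arm asked which genes the factor binds directly. All 4 libraries used sheared Col-0 genomic DNA, which the protocol derives from leaf although the tissue label reads root. In 2 libraries the DNA was mixed with Halo-tagged MYB67 made in wheat germ extract, and in the other 2 with the Halo tag alone, made from an empty vector. Binding was thus measured in vitro on DNA without chromatin, and no value in the deposited files belongs to a single library. No error between libraries could be given for any peak, and the depth is unknown.

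MYB67 belongs to the R2R3 MYB family, plant factors whose DNA-binding domain of MYB repeats recognises short elements rich in A and C. Such AC elements are frequent in promoters of phenylpropanoid genes, which supply lignin, flavonoids and the phenolic part of suberin. Promoters often carry several AC elements, so a peak with a single match lets the quality of 1 site be set beside the signal over it.

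The sequence searched for was the motif that the authors derived from the MYB67 peaks. It is shown because every site counted here is a match to it, written with the most frequent base at each position and with capitals at the 6 positions that carry more than 1 bit of information.
MYB67 motif: tccACCTAcC
Position 4 was A in 99.7%, position 6 was C in 99.7% and position 8 was A in 99.5% of the matrix weight. Position 7 allowed T (68.9%) or A (30.4%), position 9 C (53.2%) or A (46.1%), and position 3 C (50.2%) or T (47.8%). A site can therefore differ from the printed letters and still match well. Because the deposited site list repeats each peak's own start and end, a site's letters and its place inside the peak were not used here.

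Site q-values of the single-site peaks ran from 0.00443 to 0.0496, with a median of 0.0121 and quartiles of 0.00754 and 0.0230. They took 245 distinct values. A q of 0.00462, shared by 89 peaks, was the most frequent, and 0.00739 was shared by 85.

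Single-site peaks were weaker than peaks with more sites and stronger than peaks with none. Fold enrichment here is the authors' ratio of the signal in a peak to the background modelled by the peak caller. Its median was 4.15 in single-site peaks (95% interval of the median 4.08 to 4.23, quartiles 3.63 and 5.04, range 1.28 to 16.5). In the same list it was 3.84 in the 202 peaks without a site (3.70 to 3.99), 4.28 in the 1754 peaks with 2 sites (4.23 to 4.38) and 6.17 in the 312 peaks with 5 or more sites (5.72 to 6.50). The median with 1 site lay close to that with 2 sites, and the intervals of these neighbours touched at 4.23. A peak drawn from the single-site group had the higher fold in 41.3% of pairs with a peak of 2 or more sites, where 50% would mean no order, and 37.1% of the peaks with 2 or more sites lay below the single-site median. Intervals of medians come from order statistics. They give the counting error of a median over the peaks of this one list. Neither the spread of single peaks nor the spread between libraries is covered. Peaks are not replicates, so no p-value is given for any comparison of peaks.

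**Figure D1:**
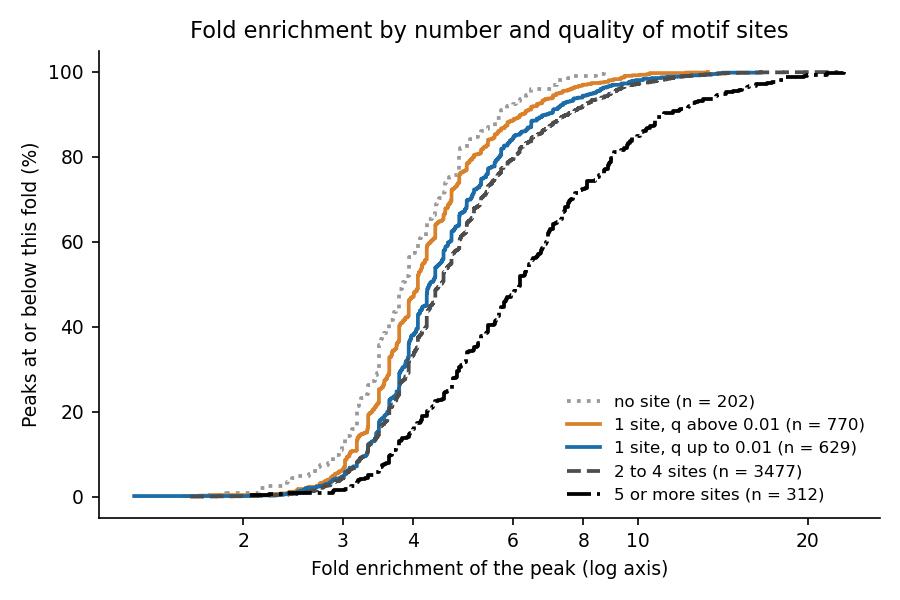
Cumulative share of peaks (%) against fold enrichment on a log axis, with 1 line per class of peak by number of motif sites and, for single-site peaks, by site q. The lines of the better-matched (median 4.28) and weaker-matched single sites (median 4.08) run close together between those of peaks without a site and of peaks with 2 to 4 sites, and the line of peaks with 5 or more sites lies far to the right.

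Strong peaks were less frequent among the members than in the whole list. A −log10 of the peak's own q of at least 10 was reached by 423 of 1399 single-site peaks (30.2%, 95% Wilson interval 27.9 to 32.7%), against 40.1% of all peaks. A fold above the upper quartile of all peaks, 5.57, was held by 247 members (17.7%), against 24.3% of all peaks. Of the 100 peaks with the highest fold 10 held a single site, and in 8 of these 10 the site was better matched. The strongest member stood 14th in the list.

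Peaks with a better-matched single site had a slightly higher fold than those with a weaker-matched one. The median was 4.28 with a site q up to 0.01 (95% interval 4.23 to 4.38, n = 629) and 4.08 with a q above 0.01 (3.94 to 4.13, n = 770), a difference of 0.208 (95% interval 0.128 to 0.373). The spread within each class was far larger, with quartiles of 3.77 and 5.32 in the first and 3.48 and 4.83 in the second. Of the 770 peaks with a weaker site 309 (40.1%) lay above the median of the better-matched class, and 249 of 629 (39.6%) of the better-matched class lay below the median of the weaker. A better-matched peak had the higher fold in 57.2% of pairs. The direction turned with the split at a site q of 0.005, to -0.0711 (-0.240 to 0.417), and among the peaks whose −log10 q reached 10, to -0.0518 (-0.324 to 0.274). The median −log10 q of the peak was 7.51 with a better-matched and 6.85 with a weaker-matched site.

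High folds were more frequent with a better-matched site. A fold of at least 10 was found in 12 of 629 better-matched peaks (1.91%) and in 6 of 770 weaker-matched peaks (0.779%), against 3.01% of all peaks. Both class shares rest on few peaks and carry no interval. The highest fold was 16.5 in the first class and 13.3 in the second, the latter at a peak with no assigned gene. When the members were ordered by fold and divided at their quintiles, the share with a better-matched site was 36.3% in the lowest group (95% Wilson interval 31.1 to 41.8%, n = 306), 42.2%, 44.8% and 48.6% in the next groups, and 53.9% in the highest (47.9 to 59.8%, n = 267).

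Within each class the rank correlation of site q with fold was close to 0. Over the 1399 peaks Spearman's rho between site q and fold was -0.116 (Pearson's r -0.0960), so lower q-values, the better matches, went with slightly higher folds. Over the 629 peaks with a q up to 0.01 rho was -0.00943, and over the 770 with a q above 0.01 it was -0.0256. These are descriptions across peaks of one list, which share the same pooled signal and background.

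In finer bins the best matches did not carry the highest folds. The 93 peaks with a site q up to 0.005 had a median fold of 4.08 (95% interval 3.93 to 4.56), the same as the 219 with a q between 0.01 and 0.015 (3.95 to 4.23). Folds repeat across the members, with 624 distinct values and 48 peaks at the most common one, 3.78, so equal medians can be ties. The highest median, 4.38 (4.23 to 4.53, n = 293), belonged to sites with a q between 0.0075 and 0.01, and the lowest, 3.89 (3.63 to 4.23, n = 118), to those between 0.04 and 0.05. The 4 bins from 0.01 to 0.04 had medians of 4.06 to 4.09. The medians thus stepped down between the bins on either side of 0.01 and were nearly level over the next bins.

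**Figure D2:**
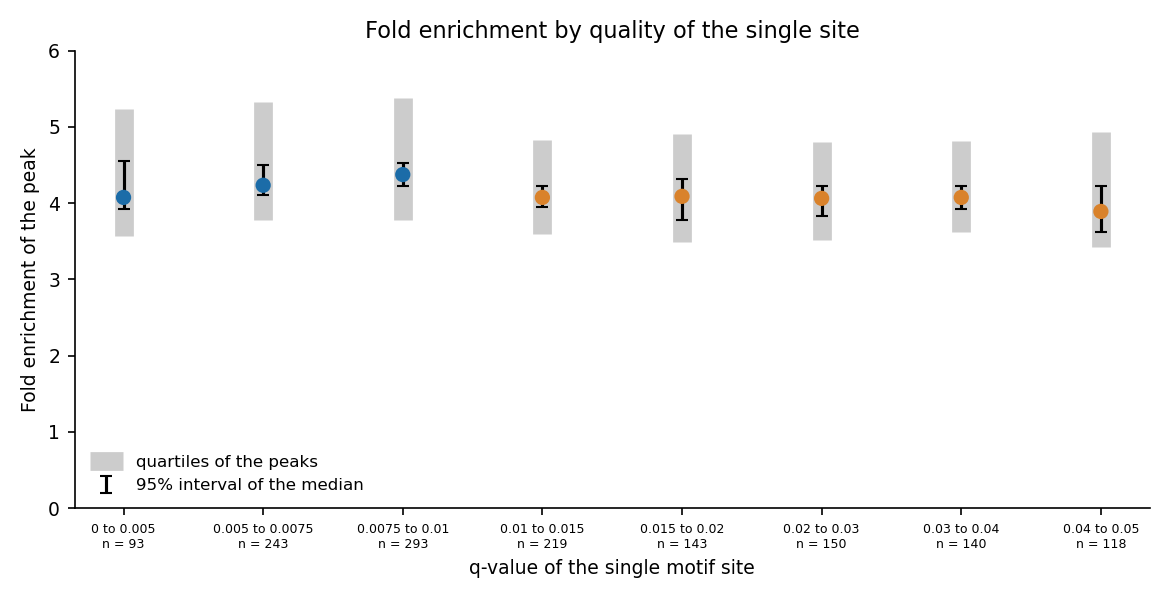
Median fold enrichment (points) of single-site peaks in 8 bins of the site q-value, with 95% intervals of the median (black bars) and the quartiles of the peaks (grey bars). Blue marks a q up to 0.01 and orange a q above it. The medians run from 3.89 to 4.38 and the grey bars overlap throughout.

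Single q-values shared by at least 20 peaks did not order by fold either. There were 11 of them, held by 461 peaks. The most frequent, 0.00462, had a median fold of 4.08 (95% interval 3.81 to 4.53, n = 89). A q of 0.00819 had 4.83 (4.26 to 5.27, n = 41), 0.00795 had 4.96 (4.68 to 6.07, n = 20) and 0.00632 had 4.64 (4.08 to 5.60, n = 34). A q of 0.00911 had 4.02 (3.79 to 4.93, n = 36), and 0.0126, the only one of the 11 above 0.01, had 4.12 (4.01 to 4.23, n = 37). The q-values with the higher medians were singled out after their values were seen.

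At the threshold itself, the members just inside a site q of 0.01 had a q of 0.00997. Among them were GSR 1 with a fold of 13.8, AT3G46490 with 3.91 and PSAT1, which encodes a sterol acyltransferase, with 3.33. Just outside, AT4G21240 (site q 0.0101) had 7.52, AT5G44568 (0.0101) had 3.96 and AT1G56720 (0.0103) had 6.77.

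Peak width moved with both site quality and fold. Single-site peaks had a median width of 238 bp, against 268 bp for peaks with 2 or more sites, and the better-matched ones were wider than the weaker-matched ones (247 against 234 bp, a difference of 13 bp, 95% interval 7.17 to 18.8). Across the members Spearman's rho between width and fold was 0.578. Within 5 bins of width, set at the quintiles of all peaks, the median fold of the better-matched class was higher in 5 of 5 bins, by 0.124 to 0.957, and its share of winning pairs was 52.7 to 60.3%. The 95% interval of the difference included 0 in each bin, from -0.00275 to 0.325 in peaks of 195 to 213 bp to -0.519 to 1.93 in peaks of 321 bp and more. The part of width in the difference was not tested further.

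Among the widest peaks the median fold of single-site peaks lay between those of peaks with 2 to 4 and with 5 or more sites. In peaks of 321 to 1063 bp the median fold was 6.57 with 1 site (95% interval 6.17 to 7.30, n = 136), 6.07 with 2 to 4 sites (5.78 to 6.32, n = 717) and 6.92 with 5 or more (6.31 to 7.41, n = 211). The single-site peaks had the higher fold in 53.3% of pairs with peaks of 2 to 4 sites. In the narrowest bin, 195 to 213 bp, the medians were 3.63 with 1 site, 3.71 with 2 to 4 sites and 3.48 without a site. In the bins between, the medians with 1 site and with 2 to 4 sites were 4.01 and 4.08, 4.56 and 4.68, and 5.27 and 5.34. In each width bin the 95% intervals of these paired medians overlapped. What width contributed to the difference over all peaks was not tested. The summit, the point of highest signal, lay near the middle of the peak in single-site peaks (median 49.2% of the width) and in peaks with 2 or more sites (49.5%).

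**Figure D3:**
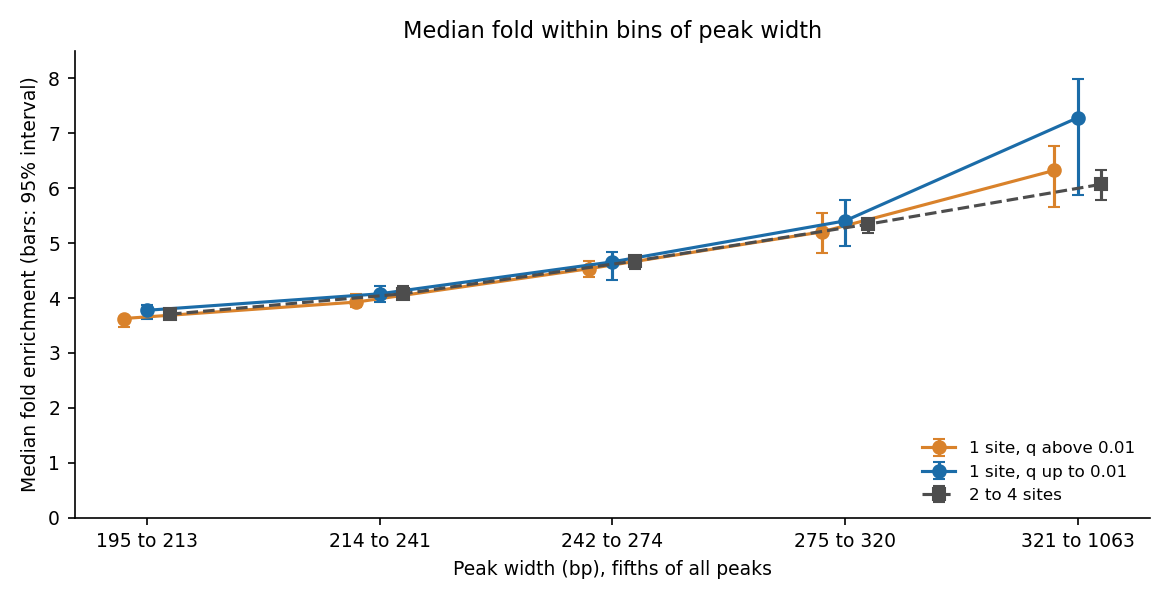
Median fold enrichment in 5 bins of peak width (bp) for better-matched (blue) and weaker-matched (orange) single-site peaks and for peaks with 2 to 4 sites (grey squares), with 95% intervals of the median. All 3 lines climb with width, and in the widest bin the better-matched single sites reach 7.28 with a wide interval.

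Peaks with a better-matched single site more often had an assigned gene. The authors joined each peak to at most 1 gene, and 1153 of the 1399 members had one (82.4%, 95% Wilson interval 80.3 to 84.3%), against 82.8% of all peaks. The share was 86.2% with a better-matched site (542 of 629, 83.3 to 88.6%) and 79.4% with a weaker-matched one (611 of 770, 76.3 to 82.1%), a difference of 6.82 percentage points (95% interval 2.84 to 10.7). Among the peaks whose −log10 q reached 10 it was 4.13 points, with an interval that includes 0 (-3.44 to 11.8). It was highest, 93.5%, for the 93 peaks with a site q up to 0.005 (87 of 93, lower bound 86.6%), the bin whose median fold was no higher than that of weaker sites. It then stood at 87.2% and 82.9% in the next bins and between 75.0 and 85.6% in the 5 bins above 0.01. The better-matched class had the larger share in 5 of 5 nuclear chromosomes, by 0.134 to 10.5 percentage points, and in 5 of 5 width bins, by 0.606 to 14.0. Among the chromosomes, the 95% interval of the difference excluded 0 only on chromosome 3 (1.95 to 18.7). Among the width bins, it did so only in peaks of 214 to 241 bp (5.87 to 21.4). How the authors chose the gene for a peak is not stated in the labels or files used here.

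**Figure D4:**
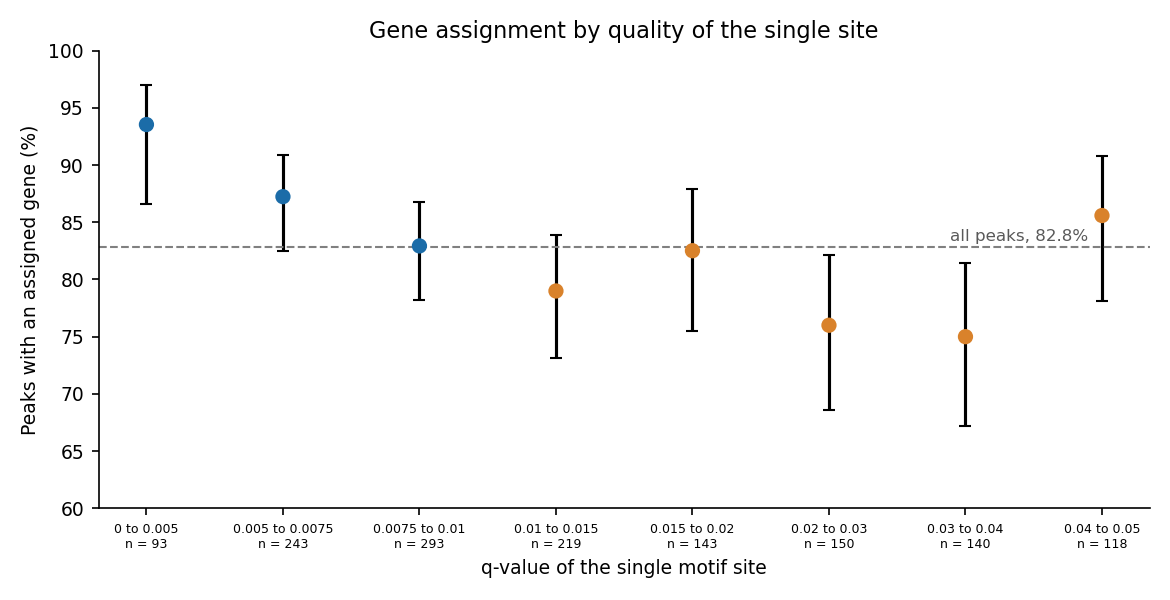
Share of single-site peaks with an assigned gene (%, axis from 60 to 100) in 8 bins of the site q-value, with 95% Wilson intervals. The dashed line is the share of all peaks, 82.8%, and the points fall from 93.5% in the lowest q bin to 75.0% between 0.03 and 0.04, with 85.6% in the last bin.

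The class difference in fold was found with and without an assigned gene. Among assigned peaks the median was 4.23 with a better-matched site and 4.08 with a weaker one (difference 0.158, 95% interval 0.0484 to 0.364). Among the 246 peaks without a gene it was 4.55 (4.23 to 5.05, n = 87) and 4.08 (n = 159), a difference of 0.475 (0.117 to 1.03). Better-matched peaks without a gene had a higher median than those with one, whose interval was 4.15 to 4.38. The intervals of these medians overlapped.

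The members were spread over the whole genome. Chromosome 3 had the largest share of single-site peaks among its peaks, 29.4% (297 of 1009, 95% Wilson interval 26.7 to 32.3%), and chromosome 2 the smallest of the nuclear chromosomes, 23.8% (214 of 901, 21.1 to 26.6%). Better-matched sites made up 36.5% of the 200 members on chromosome 4 (30.1 to 43.4%) and 48.5% of the 363 on chromosome 1 (43.4 to 53.6%), with 44.4%, 45.5% and 46.8% on chromosomes 2, 3 and 5. On chromosome 4 alone the median fold was lower with better-matched sites, by -0.116 (95% interval -0.467 to 0.472). Better-matched peaks there still had the higher fold in 51.7% of pairs. The interval of the difference also included 0 on chromosomes 2 (-0.254 to 0.626) and 5 (-0.0910 to 0.466), and excluded it on chromosomes 1 and 3. A further 10 members lay on the mitochondrial chromosome, 2 of them better matched, with a median fold of 2.60, and 1 on the plastid chromosome, with a fold of 1.28, the lowest of all members.

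Single-site peaks in regions poor in peaks held few better-matched sites. In the 12 windows of 1 Mb with at most 30 peaks, a limit set after the data were seen, 14 of 64 single-site peaks had a site q up to 0.01 (21.9%, 95% Wilson interval 13.5 to 33.4%), against 612 of 1324 elsewhere in the nucleus (46.2%, 43.6 to 48.9%). Single-site peaks made up 27.1% of peaks in these windows and 26.0% elsewhere. Only 30 of the 64 had an assigned gene (46.9%), against 84.3% elsewhere. These shares were not counted over all 236 peaks of the windows, so neither can be called particular to single-site peaks. Inside the windows the classes stood the other way round, with wide intervals. The assigned share was 42.9% with a better-matched and 48.0% with a weaker-matched site (difference -5.14 percentage points, 95% interval -30.5 to 22.7), and the median fold was 3.78 and 4.08 (difference -0.300, -1.18 to 1.64). In the other nuclear windows the difference in assigned share was 5.51 percentage points (1.59 to 9.37).

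The nuclear members with a gene pointed to 1122 genes, all of them protein-coding in the RefSeq table. Of these, 538 had a better-matched and 596 a weaker-matched single-site peak, and 12 had both. For 949 genes the single-site peak was their only peak. The other 173 carried at least 1 further peak, and in 151 of them a further peak held 2 or more sites. A gene's strongest peak was a single-site peak at 1035 genes, 3.77% of the 27444 nuclear protein-coding genes, or 25.7% of the 4030 with any peak.

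At genes that carried both kinds, the peak with a weaker-matched single site was more often the lower one. The single-site peak had the higher fold at 67 of 151 genes and the lower at 83 (44.4% higher, 95% Wilson interval 36.7 to 52.3%). With a better-matched site the counts were 34 higher and 34 lower of 69 genes. With a weaker-matched site they were 35 higher and 50 lower of 85 (41.2% higher, 31.3 to 51.8%), and the median difference was -0.488. Both intervals include 50%. At the 12 genes with a single-site peak of each class, the better-matched peak was higher at 4, lower at 7 and equal at 1.

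The strongest better-matched single sites lay at genes of varied function. The highest fold, 16.5, was at AT5G43690 (TAIR10, chromosome 5, 17545836 to 17546266), followed by AT5G25170 with 14.1 (chromosome 5, 8691840 to 8692193). GSR 1 (AT5G37600, chromosome 5, 14936127 to 14936474), which encodes a cytosolic glutamine synthetase that assimilates ammonium, had 13.8, and AT5G27490 had 13.5. AGD13 (AT4G05330, chromosome 4, 2723922 to 2724244), a gene for an ARF-GAP protein of membrane traffic, had 12.9. LOX6 (AT1G67560, chromosome 1, 25318871 to 25319254), which encodes a lipoxygenase that feeds jasmonate synthesis, had 12.4, and CLC-C (AT5G49890, chromosome 5, 20290029 to 20290363), a gene for a chloride transporter of the CLC family, had 12.0 with a site q of 0.00462. AT3G18960 had 11.3, AT2G16270 11.0 and AT5G51770 10.2.

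The strongest weaker-matched single sites reached lower folds, from 10.5 down to 9.31 over the first 10 genes. AT1G06840 (chromosome 1, 2103927 to 2104265) and AT5G01250 (chromosome 5, 104252 to 104587) had 10.5 each, and AT5G56890 had 10.4. SWEET17 (AT4G15920, chromosome 4, 9034148 to 9034463), which encodes a fructose transporter of the vacuole membrane, had 10.1 although its site q of 0.0496 was the highest among the members. CER3 (AT5G57800, chromosome 5, 23419241 to 23419586), needed for alkane formation in cuticular wax, had 9.46 with a site q of 0.0437. AT1G60420, also known as NRX1 for nucleoredoxin 1, had 9.32 with a q of 0.0384. The others were AT3G50250 with 9.77, AT5G26840 with 9.47, AT3G55720 with 9.35 and AT5G45210 with 9.31. Of these 20 leading peaks of both classes, 17 were wider than 320 bp, as were 9.72% of all members.

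Genes of the barrier, wall and cambium lists whose strongest peak held a single site mostly had a weaker-matched site. Over 9 process lists of 188 genes, 62 had a peak, and at 16 of these the strongest peak held a single site. That is 25.8% of the listed genes with a peak, next to 25.7% over all genes with a peak, so single-site peaks were not more frequent at the listed genes. As a share of all genes, peak or not, it is 8.51% against 3.77%, and the lists have peaks at a larger share of their genes. The site was better matched at 3 of the 16 and weaker at 13, while over all 1035 such genes 496 were better matched and 539 weaker. The first counts are small and carry no interval. The median fold of the 16 was 4.47, against 4.23 over all 1035 genes. Listed genes whose strongest peak did not hold a single site had 5.46, against 4.55 over all such genes, so a higher median was not particular to the single-site genes.

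Few phenylpropanoid and flavonoid genes had a single-site peak as their strongest. Of the 13 phenylpropanoid and lignin genes with a peak, only OMT1 (AT5G54160, chromosome 5, 21982673 to 21982894), also called COMT1, the O-methyltransferase of syringyl lignin synthesis, had a single-site peak as its strongest. Its fold was 3.87 and its site q 0.0205, whereas the other 12 genes had a median fold of 8.32. None of the 10 flavonoid genes with a peak, none of the 4 Casparian strip genes with one and neither of the 2 photosynthesis genes with one had a single-site peak as the strongest. Over all genes with a peak the share was 25.7%, and the number of sites in the other listed genes' peaks was not counted here.

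Suberin genes were represented by 3 of the 10 with a peak in the biosynthesis and export list. That is 30%, near the 25.7% of all genes with a peak. AT2G48130 (chromosome 2, 19685453 to 19685789) had a fold of 5.12 and a site q of 0.00462. ABCG6 (AT5G13580, chromosome 5, 4373066 to 4373340), a half-size ABC transporter needed for suberin deposition, had 4.96 with a q of 0.0189. FAR1 (AT5G22500, chromosome 5, 7469978 to 7470301), which makes the fatty alcohols of suberin, had 3.31 with a q of 0.0415. Among the 4 suberin regulators with a peak, NAC038 (AT2G24430) had 4.56 with a q of 0.0161, and MYB52 (AT1G17950), better known as a regulator of secondary walls, had 5.03 with a q of 0.0132. MYB52 has a further peak. The median fold of the 7 other suberin biosynthesis genes with a peak was 4.83, between the values of ABCG6 and FAR1.

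At 4 of the 11 cutin and wax genes with a peak, a single-site peak was the strongest. That is 36.4%, against 25.7% of all genes with a peak. These 4 genes held only weaker-matched sites. Besides CER3, these were WSD1 (AT5G37300, chromosome 5, 14767255 to 14767573), the wax ester synthase of stems, with a fold of 6.29, ABCG32 (AT2G26910), which exports cutin precursors, with 4.23, and SHN1 (AT1G15360), an AP2-type activator of cuticle genes, with 3.27. The median of the other 7 genes with a peak was 5.79.

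Xylem genes gave 4 of the 8 with a peak (50%, against 25.7% of all genes with a peak). XCP2 (AT1G20850, chromosome 1, 7251101 to 7251420), a cysteine protease of maturing vessels, had a fold of 8.25 at a site q of 0.00462. MYB85 (AT4G22680, chromosome 4, 11923228 to 11923549), an activator of lignin genes, had 6.85 at a q of 0.0256, and the gene has a further peak. IRX1 (AT4G18780), also called CESA8, a catalytic subunit of secondary wall cellulose synthase, had 4.08 at a q of 0.00633. GUT2 (AT1G27440), also called IRX10 and involved in xylan synthesis, had 2.95 at a q of 0.0419. The other 4 xylem genes with a peak had a median of 7.87. Of the cambium and phellogen list, HB-8 (AT4G32880), an HD-ZIP III factor of the procambium, had 4.38 at a q of 0.0139 and LBD4 (AT1G31320), a LOB-domain factor active at the edge of the cambium, had 3.93 at a q of 0.0354.

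**Figure D5:**
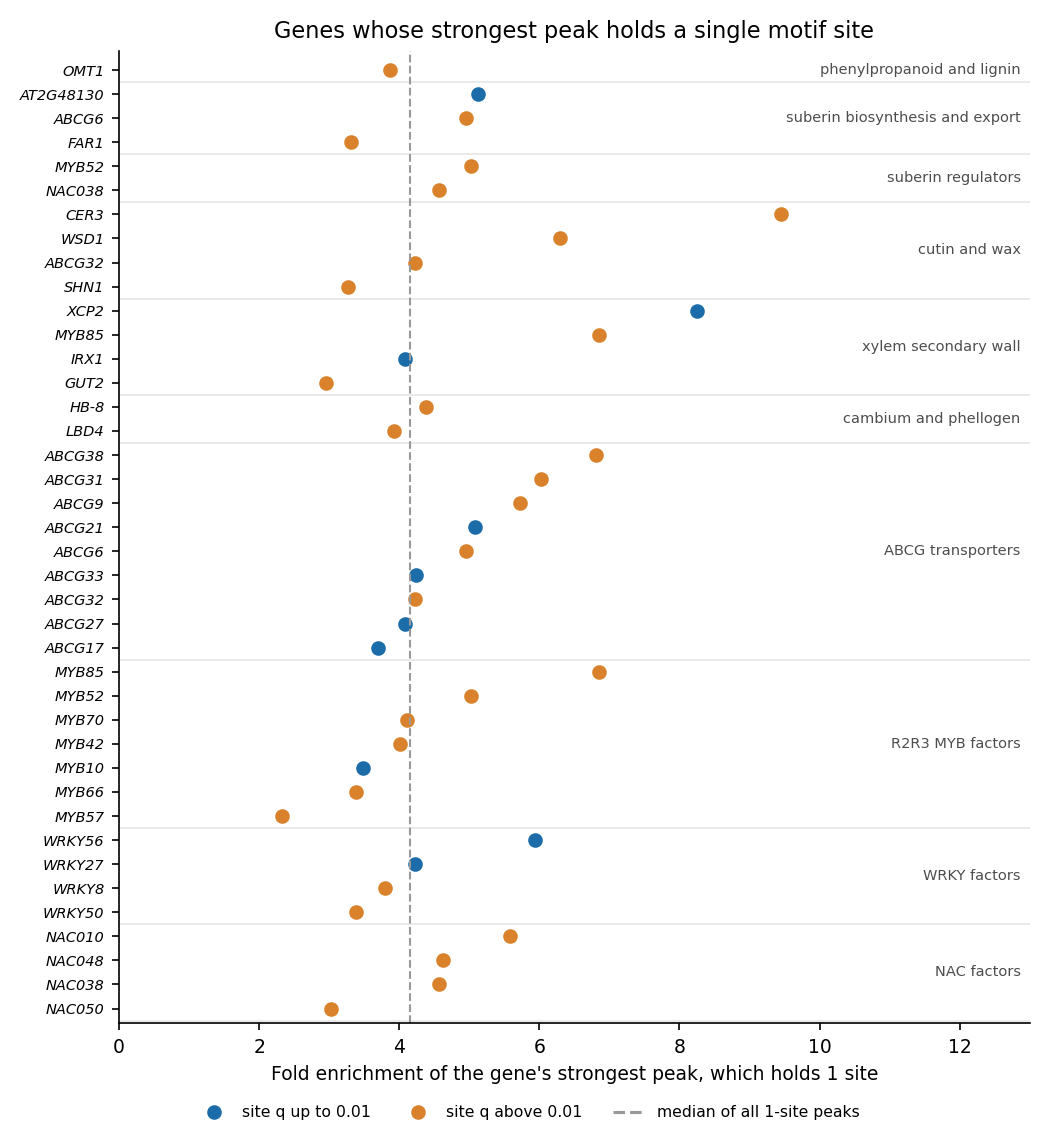
Fold enrichment of the strongest peak of each gene in 6 process lists and 4 gene families, for genes whose strongest peak holds a single site. Blue marks a site q up to 0.01 and orange a q above it, and the dashed line is the median of all single-site peaks, 4.15. CER3 (9.46, orange) and XCP2 (8.25, blue) lie farthest to the right, and ABCG6, ABCG32, MYB52, MYB85 and NAC038 appear under 2 headings.

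The ABCG transporters, which carry lipids and other hydrophobic compounds across membranes, had the highest count of single-site genes among the 9 lists and 4 families. The strongest peak held a single site at 9 of 42 genes (21.4%, against 3.77% of all nuclear protein-coding genes), which are 9 of the 20 with a peak (45%, against 25.7% of all genes with a peak). By the share of genes with a peak, 3 small lists stood higher: cambium and phellogen (2 of 3), suberin regulators (2 of 4) and xylem (4 of 8). Among the 9 ABCG genes the site was better matched at 4 and weaker at 5. Their median fold was 4.96, against 4.54 at the other 11 ABCG genes with a peak. The highest values were 6.81 at ABCG38 (AT3G30842, the strongest of 3 peaks of the gene), 6.02 at ABCG31 (AT2G29940) and 5.72 at ABCG9 (AT4G27420), the last pair of which act together in the pollen coat. The lowest was 3.69 at ABCG17 (AT3G55100). The genes named for this family and the next were chosen after their values were seen.

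R2R3 MYB genes had a single-site peak as the strongest at 7 of 115 genes (6.09%), WRKY genes at 4 of 67 (5.97%) and NAC genes at 4 of 79 (5.06%), against 3.77% of all nuclear protein-coding genes. Of their genes with a peak these were 7 of 22 (31.8%), 4 of 18 (22.2%) and 4 of 13 (30.8%), near the 25.7% of all genes with a peak. Of the 7 MYB genes only MYB10 (AT3G12820) held a better-matched site, with a fold of 3.48. MYB42 (AT4G12350), a close relative of MYB85, had 4.01 at a q of 0.0126, and MYB66 (AT5G14750), the WEREWOLF factor that specifies hairless cells of the root epidermis, had 3.38 at a q of 0.0166. All 4 NAC genes held weaker-matched sites, with NAC010 (AT1G28470), a regulator of secondary walls also known as SND3, the highest at 5.57. NAC010 has a further peak.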

How the data were processed

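The 2 MYB67 and 2 empty-vector libraries were deposited as one set of MYB67 peaks. Per the submitters' processing notes the tools were MACS3 3.0.0a7 and HOMER, with STAR 2.7.10a, Trimmomatic 0.39, bedtools, FastQC and Picard 2.27.1, and the build was TAIR10. Order and settings were not stated, nor how the libraries were combined. The deposited fold enrichment is a ratio over modelled background, and the deposited −log10 q belongs to the peak. The deposited q-value of each FIMO site was kept up to 0.05, per the file name. The deposited motif gives each base as a fraction per position. The integer score deposited beside them was not used, and the summit offset was used as deposited. Wider peaks offer more sequence for sites, and the background estimate bears on each fold.

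Peaks were joined to sites by coordinates in Python 3.11.15 (pandas 2.3.3, scipy 1.17.1). Medians carry 95% order-statistic intervals, shares Wilson intervals, and differences intervals built from both groups' limits. All cover counting error only. The intervals of medians and of their differences were tested on simulated independent values without ties. Gene symbols came from RefSeq (TAIR10.1); 1122 of 1122 nuclear genes matched. No genome or promoter sequence was used, and a planned count of AC elements in promoters was not run. Named genes were the 10 of highest fold per class, 3 on either side of the q threshold, and listed genes whose strongest peak held 1 site. Members and lists were chosen with earlier results of these data known.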

Additional observations from a re-analysis of the deposited data

How the results depend on the processing

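With 1 pooled peak list, the depth per library is unknown, no replicate could be left out, and weak peaks may be missed. No paired analysis was possible because no value belongs to a single library. The difference in median fold between the site classes turned to -0.0711 when the split was set at a site q of 0.005 (medians 4.08 and 4.15) and to -0.0518 among the peaks whose −log10 q reached 10 (5.77 and 5.82), a limit that itself removes low folds. The cause of the first change was not tested. In the middle 50% of peak width the medians were 4.50 and 4.24. It kept its sign when repeated entries of a peak and q were counted once, in nuclear peaks, with a split at 0.02, in the middle widths, without windows poor in peaks and in assigned peaks, at 0.158 to 0.255. The difference in assigned share was 11.9 percentage points with a split at 0.005 and 4.13 (95% interval -3.44 to 11.8) among the peaks whose −log10 q reached 10, where better-matched sites made up 53.4% of members. Keeping only sites with a q up to 0.01 before counting gave 2212 single-site peaks. Counting repeated entries once gave 1434. Letting any peak of a gene decide, 4.09% of nuclear genes had a single-site peak, against 3.77%. The alternatives without windows poor in peaks, those on assigned peaks, all on the difference in assigned share, and the numbers of single-site peaks with repeated entries counted once and in the nucleus were added after seeing the data.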
